A study of Mus musculus with 64 samples.

Results

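Liver of mice without Myc was compared at 20 and 5 months of age. The comparison took 11 of the 64 libraries of the series, the liver libraries of the Myc knockout (KO), with 5 at 20 months (K18L06 to K18L10) and 6 at 5 months (K5L4284, K5L4285, K5L5116, K5L5118, K5L5218 and K5L5248). Libraries were taken by the tissue, genotype and age in their labels. The series profiled RNA of adipose tissue, liver and skeletal muscle in KO and wild-type (WT) mice at both ages, under a title on premature ageing. KO mice came from crossing a Gt(ROSA)26Sortm1(cre/ERT2)Tyj strain on B6.129 with the strain B6.129-B6.129S6-Myctm2Fwa/Mmjax. The first allele expresses a Cre that tamoxifen switches on, and the other is a Myc gene flanked by Cre target sites. Gt(ROSA)26Sor is active in most cell types, so Myc was removed in the whole body and not in hepatocytes alone. WT mice, used here for comparison, were C57/B6, so genotype and strain background cannot be told apart. All groups, WT included, are labelled as given 5 daily intraperitoneal injections of tamoxifen at 75 mg/kg in corn oil at weaning, once they weighed at least 15 g. Codes of the older libraries hold the number 18, while their labels give 20 months.

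Myc is a transcription factor that binds the E-box sequence together with its partner Max and drives genes of ribosome production, nucleotide synthesis, energy metabolism and cell division. The adult liver is made mainly of hepatocytes, whose metabolism differs between the periportal and pericentral ends of the lobule, with resident macrophages (Kupffer cells), endothelial and stellate cells between them. Many hepatocyte genes are also expressed at different levels in the sexes, under control of the pattern of growth hormone release.

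The KO liver libraries held 16.3 to 25.4 M reads on genes, and levels are given as CPM, the deposited scaled read signal. The 12 hepatocyte markers examined were all above the filter, and 8 had a negative change, with a median of -0.35 on the log2 scale. At 20 months 1 of them (Cps1) was called lower, against 1.36% of all tested genes. DESeq2 called 4 of them lower, and 378 of all 12469 tested genes. The summed level of the 12 markers was 147267 to 173578 CPM at 20 months and 138471 to 211677 CPM at 5 months. In 2 of the 6 young libraries, K5L5116 and K5L5118, Xist was at 241 and 331 CPM and Y-linked transcripts were at 0, while all 5 old libraries had Y-linked transcripts. Age and sex are therefore partly confounded, and results are also given without these 2 libraries where that changes them. In a principal component analysis of the 11 libraries, the young library K5L5218 lay with the old ones on the first component (26.1, against 1.2 to 29.8 in old and -45.7 to -8.0 in the other young libraries), which held 32.2% of the variance. The labels do not say which codes are separate animals, so p-values measure the spread between these libraries.

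Myc itself was examined first. The old KO libraries had 2.16, 2.61, 2.92, 1.12 and 1.75 CPM, and the young ones 1.16 to 4.04 CPM (median 2.65). Myc was low at both ages, and the ranges overlapped. The mean log2(CPM + 1) differed by -0.18 between old and young (two-sided exact permutation test, p = 0.459, n = 5 and 6). In WT liver Myc averaged 19.6 ± 10.3 CPM (SD, n = 6) at 5 months and 5.87 ± 0.975 CPM (n = 5) at 20 months, a log2 change of -1.40 (adjusted p = 0.0107). Pvt1, the long noncoding gene next to Myc, was at 4.93, 2.96, 5.17, 2.51 and 2.33 CPM in old and 2.67 to 8.01 CPM (median 4.99) in young KO libraries, and its log2 change was -0.39 ± 0.22 (SE, adjusted p = 0.338). Gt(ROSA)26Sor, the noncoding gene of the locus that carries Cre, rose from a young range of 1.41 to 3.08 CPM (median 1.78) to 4.52, 3.78, 4.19, 6.85 and 5.17 CPM, a log2 change of 0.98 ± 0.19 (SE, adjusted p = 0.0064), and the ages did not overlap. In WT liver it rose too, from 6.38 ± 2.08 CPM (SD, n = 6) to 10.9 ± 1.40 CPM (n = 5), a log2 change of 0.73 (adjusted p = 0.0207). The limma unadjusted p of the difference between the genotypes was 0.362.

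Of 12469 genes tested, 373 changed between 5 and 20 months in KO liver (2.99% of those tested; limma, adjusted p under 0.05). At 20 months 204 were higher (1.64%) and 169 were lower (1.36%), and 103 of them differed by at least 1 on the log2 scale. With TMM scaling the split was 237 higher and 126 lower. Old and young libraries did not overlap for 480 genes (3.85% of those tested), 222 of which were called. Without the libraries K5L5116 and K5L5118, 554 genes were called (4.44%), 278 of them shared with the 373. Leaving out the young library K5L5218 gave 729 calls (5.85%). Leaving out K18L06, K18L07, K18L09 or K18L10 gave 141, 188, 133 and 102, and leaving out K5L4284, K5L4285, K5L5116 or K5L5248 gave 184, 156, 224 and 229. Without K18L08 or K5L5118 there were 385 and 405. A core of 84 genes stayed called whichever library was dropped. For other genes named by rule, the number of these 11 fits that kept the call, or the libraries that ended it, is given. It is not given for Rpl39, Rpl30 and Rps27 or for genes picked after their values were seen, which may lie outside the 84.

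Genes of fat storage were among the largest rises. Cidea, a lipid droplet protein that promotes the fusion of droplets into larger ones, was at 161, 7.41, 9.16, 5.01 and 74.1 CPM in the old libraries. In the 6 young libraries together it had 6 reads, at 0 to 0.144 CPM. With every young library below 1 CPM, Cidea passed the filter (above 1 CPM in at least 5 libraries) only through the 5 old ones. That every old library lay above every young one was thus fixed by the filter. K18L06 and K18L10 were far above the other 3, and the log2 change was 4.42 ± 0.58 (SE, adjusted p = 0.000316). Fitm1, a membrane protein that takes part in forming droplets (chr14:55575674-55576952, GRCm38.p6), was at 95.4, 59.7, 68.5, 79.1 and 86.9 CPM in old and 6.55 to 56.0 CPM (median 11.4) in young libraries. Its change was 2.43 ± 0.46 (SE, adjusted p = 0.00667), and the young library K5L5218, at 56.0 CPM, came closest to the old range. Mogat1, which makes diacylglycerol from monoacylglycerol, was at 15.9, 5.42, 3.89, 6.44 and 3.57 CPM against 0.694 to 2.10 CPM (median 1.16), a change of 1.63 ± 0.30 (SE, adjusted p = 0.00595). These 3 were the called members of 24 tested lipid droplet genes, where 1.64% of all tested genes were called higher. The median change of the list was 0.03, against -0.02 for all tested genes.

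Other droplet genes did not pass the test. Plin2, the main coat protein of hepatocyte droplets, was at 1568 to 3842 CPM in old and 1277 to 4612 CPM in young libraries, with a change of -0.12 (adjusted p = 0.886). Cidec, a relative of Cidea, had a change of 0.00 (adjusted p = 0.999) over a range of 8.41 to 661 CPM in the young libraries. Pnpla2, the first lipase of triglyceride breakdown, had a change of -0.96 (adjusted p = 0.226). Plin4, another droplet coat protein, was at 105, 122, 101, 107 and 134 CPM in old and 6.84 to 97.2 CPM (median 53.3) in young libraries. All old libraries were above all young ones, and its change of 1.6 (adjusted p = 0.0584) passed the threshold without K5L5116 and K5L5118 (2.21, adjusted p = 0.00687).

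The list of fatty acid oxidation and PPAR alpha targets and that of fatty acid synthesis each had 1 called gene. These shares were 2.78% and 4.76%, against 2.99% of all tested genes. Cd36, the fatty acid uptake receptor, was at 512, 373, 173, 231 and 252 CPM in old and 33.6 to 243 CPM (median 68.02) in young libraries, with K18L08 and K18L09 within the young range, whose upper values came from K5L5116 and K5L5118. Its change was 1.77 ± 0.46 (SE, adjusted p = 0.0371), a call kept in 4 of the 11 fits, and 2.48 (adjusted p = 0.00046) without K5L5116 and K5L5118. Cd36 was the called member of 36 genes of fatty acid oxidation and PPAR alpha targets (list median -0.09). Mlxipl, the glucose-responsive transcription factor ChREBP that works with the Myc network protein Mlx, was at 206, 205, 165, 285 and 293 CPM against 95.5 to 159 CPM (median 123). It rose by 0.88 ± 0.17 (SE, adjusted p = 0.00849), to above all young libraries. Mlxipl was the called gene among both the 11 tested genes of the Myc network (9.09%) and the 21 of fatty acid synthesis (list medians -0.08 and 0.08).

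**Figure D1:**
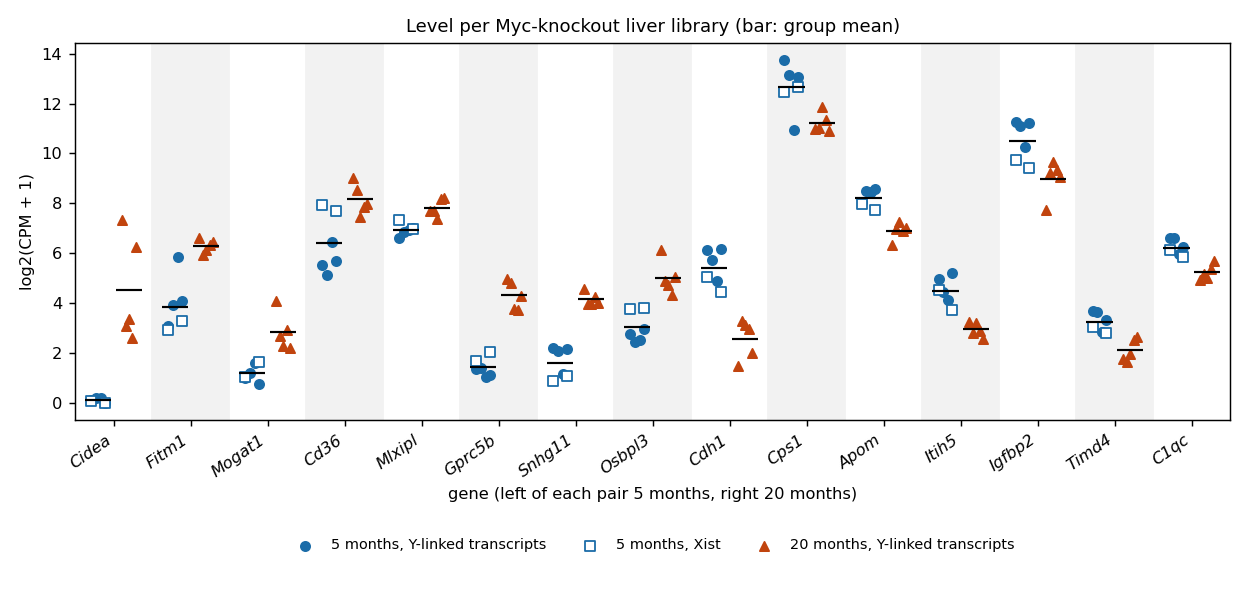
Levels of 15 genes on the log2(CPM + 1) scale (vertical axis) in each KO liver library, with 5 months on the left and 20 months on the right of each pair, open squares for the 2 young libraries with Xist and bars for group means. Cidea was near 0 in the young libraries and between 5.01 and 161 CPM in the old ones, and Cdh1 was at 1.80 to 8.58 CPM in old and 20.8 to 70.0 CPM in young libraries.

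The other large rises had no common list. The 10 largest were taken among called genes that averaged 5 CPM or more, did not overlap between the ages and kept their call without K5L5116 and K5L5118, and the 10 largest falls likewise. Gprc5b, an orphan G protein-coupled receptor (chr7:118972040-118995211), was at 30.03, 26.98, 12.6, 12.1 and 18.4 CPM in old and 1.03 to 3.07 CPM (median 1.57) in young libraries. Its change of 2.88 ± 0.32 (SE, adjusted p = 2.54e-05) was the second largest of the 204 genes called higher, and the ages did not overlap. Snhg11, a noncoding host gene of small nucleolar RNAs, was at 22.4, 14.4, 14.5, 18.05 and 15.2 CPM against 0.847 to 3.57 CPM (median 2.24), a change of 2.55 ± 0.43 (SE, adjusted p = 0.00263). Osbpl3, an oxysterol-binding protein relative that works at membrane contacts, was at 67.9, 28.7, 25.01, 18.7 and 32.3 CPM against 4.33 to 12.9 CPM (median 6.24), a change of 1.98 ± 0.41 (SE, adjusted p = 0.0119). K18L06 was the highest library for Gprc5b, Snhg11 and Osbpl3. Sema5b, a semaphorin, was at 22.8, 14.7, 11.4, 30.4 and 17.7 CPM against 1.71 to 9.25 CPM (median 4.70), and Aatk, a kinase, rose by 1.82 (adjusted p = 0.000618). The remaining 3 of these 10 rises were Gm15401 at 2.05 (adjusted p = 0.00115), D930048N14Rik at 1.88 (adjusted p = 2.54e-05) and Pnldc1 at 1.84 (adjusted p = 0.0176). The call of Pnldc1 was lost without K18L06 or without K18L10 (adjusted p up to 0.0583).

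Cdh1 had the largest fall of the 169 genes called lower. It encodes E-cadherin, the adhesion molecule of epithelial cells that in the liver marks periportal hepatocytes and bile ducts (chr8:106603350-106670247). Old libraries had 1.80, 8.58, 7.67, 6.85 and 2.99 CPM and young ones 20.8 to 69.96 CPM (median 41.8). Every old library was below every young one, and the change was -2.83 ± 0.40 (SE, adjusted p = 0.000618). Apom, the apolipoprotein that carries sphingosine 1-phosphate on HDL, was at 79.7, 123, 149.7, 116 and 127 CPM against 208 to 375 CPM (median 309.9), a fall to below every young library of -1.33 ± 0.19 (SE, adjusted p = 0.000793). Itih5, an inter-alpha-trypsin inhibitor heavy chain, was at 8.42, 5.98, 8.18, 6.34 and 4.88 CPM against 12.1 to 35.8 CPM (median 21.3), with a change of -1.56 ± 0.28 (SE, adjusted p = 0.00435). Btg3, of the antiproliferative BTG/TOB family, was at 3.70, 3.68, 6.91, 2.81 and 5.39 CPM against 7.10 to 32.99 CPM (median 21.4), with a change of -1.75 ± 0.35 (SE, adjusted p = 0.0104). Med12l, a paralogue of a Mediator subunit, was at 2.36, 2.55, 2.15, 1.94 and 1.68 CPM against 4.54 to 15.5 CPM (median 8.33), with a change of -1.59 ± 0.26 (SE, adjusted p = 0.00218). The old range lay below the young range for each of these genes.

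Cdh1 was 1 of 2 called among 18 periportal genes, against 2.99% of all tested genes, and their median change was -0.71. The other was Cps1, the first enzyme of the urea cycle, at 2029, 2064, 3724, 2614 and 1882 CPM in old libraries and 1984 to 13814 CPM (median 7525) in young ones. The lowest young library, K5L5218, lay inside the old range, and the change was -1.45 ± 0.38 (SE, adjusted p = 0.0393). Without K5L5218 the change was -1.79 (adjusted p = 0.00331), and the call was kept in 2 of the 11 fits and lost without K5L5116 and K5L5118 (-1.51, adjusted p = 0.0612). In all, 13 of the 18 had a negative change, as had 6709 of the 12469 tested genes. Of 20 pericentral genes 1 was called, the glutamate transporter Slc1a2, at 142, 241, 196, 133 and 145 CPM against 231 to 356 CPM (median 269.9). Its change was -0.72 (adjusted p = 0.0166), kept in 8 of 11 fits, and the list median was -0.19. In bulk tissue, fewer cells of a type and less RNA per cell cannot be told apart.

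Several enzymes and secreted proteins of hepatocytes were lower in old KO liver. Por, the reductase that passes electrons to microsomal cytochromes P450, was at 365, 692, 869, 414 and 478 CPM against 552 to 2318 CPM (median 1349.6), a change of -1.33 ± 0.35 (SE, adjusted p = 0.0393). Ces2a, a carboxylesterase, changed by -0.62 (adjusted p = 0.0493). These were the 2 called of 39 genes of xenobiotic metabolism (2.99% of all tested genes), which had a median of 0.14, or -0.08 with 3 called lower without K5L5116 and K5L5118. Igfbp2, a binding protein of insulin-like growth factors, was at 208, 593, 799.9, 639 and 537 CPM against 673 to 2452 CPM (median 1715), with a change of -1.50 ± 0.37 (SE, adjusted p = 0.0318), and was the called gene of 23 in growth hormone, IGF and insulin signalling (median -0.16). Lifr, the receptor of leukaemia inhibitory factor, was at 89.8, 115, 96.8, 110.4 and 114 CPM against 123 to 257 CPM (median 178), a change of -0.71 (adjusted p = 0.0293), and the ages did not overlap. Hsd17b7, an enzyme of the late steps of cholesterol synthesis, changed by -0.81 (adjusted p = 0.032) and was the called gene of 25 in that pathway (median -0.22). Selenos, of endoplasmic reticulum protein quality control, changed by -0.52 (adjusted p = 0.037) as the called gene of 30 in protein folding stress (median -0.19). Each of these 6 calls was kept in 1 to 4 of the 11 fits, with adjusted p up to 0.136, and that of Por was lost without K5L5116 and K5L5118 (-1.35, adjusted p = 0.0594).

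Most genes of the ribosome had small negative changes, few of which passed the test. Of 80 cytosolic ribosomal protein genes, 6 were called, all lower, and 77 had a negative change, with a median of -0.28. Among all 12469 tested genes 1.36% were called lower and 6709 had a negative change. Rps29, a small subunit protein (chr12:69157722-69159186), was at 32.96, 54.2, 59.9, 64.9 and 59.5 CPM in old and 87.5 to 192 CPM (median 127) in young libraries, a change of -1.28 ± 0.24 (SE, adjusted p = 0.00632). Rps28 was at 32.96, 47.4, 61.4, 51.1 and 56.03 CPM against 86.1 to 167 CPM (median 115), a change of -1.26 ± 0.21 (SE, adjusted p = 0.00263). Neither gene overlapped between the ages, and Rpl38 was the next, at -0.78 (adjusted p = 0.0228), kept in 7 of 11 fits. The other called members were Rpl39, Rpl30 and Rps27, and since ribosomal protein genes have many processed copies, reads may be split among them. Of 57 ribosome biogenesis genes 50 had a negative change and 1 was called, Pes1, which acts in ribosomal RNA processing. Its change was -0.41 (adjusted p = 0.0448), kept in 3 of 11 fits, and -0.41 (adjusted p = 0.0657) without K5L5116 and K5L5118. Without these libraries the called member was instead Utp20, of the same pathway, which was higher (0.70, adjusted p = 0.0126). The median of that list was -0.17.

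Genes of mitochondrial respiration had mostly negative changes too. Of 54 oxidative phosphorylation genes 49 had a negative change, with a median of -0.22, and 3 were called, all lower. Over all 12469 tested genes 6709 had a negative change and 1.36% were called lower. Atp5b, the beta subunit of the ATP synthase, was at 1335, 1299.8, 1330.1, 1309 and 1169.6 CPM against 1575 to 2163 CPM (median 1911), a change of -0.56 ± 0.11 (SE, adjusted p = 0.00905), and the ages did not overlap. Ndufa1, a subunit of complex I, changed by -0.73 (adjusted p = 0.0407) and Cox7c, a subunit of complex IV, by -0.59 (adjusted p = 0.0205), kept in 3 and 8 of 11 fits. Atp5k, another ATP synthase subunit and one of the 10 falls taken by that rule, was at 18.6, 31.8, 31.9, 41.5 and 31.4 CPM against 45.4 to 98.9 CPM (median 70.3), a change of -1.11 (adjusted p = 0.0202) kept in 8 of 11 fits. Without K5L5116 and K5L5118, 8 of the 54 were called, all lower, where 2.07% of all tested genes were called lower.

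The change differed slightly with transcript length. In the quintile of genes with the shortest transcripts (216 to 1987 bases) the median change was -0.08, with 22 genes called higher and 42 lower. In the longest quintile (from 5285 bases) it was 0.01, with 33 called higher and 24 lower. The shortest quintile held 67 of the 80 ribosomal protein genes and 41 of the 54 oxidative phosphorylation genes. In WT liver the medians of these quintiles were -0.17 and 0.12. The part of length in the ribosomal and respiratory results was not tested.

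The list of polyamine, nucleotide and one-carbon synthesis, processes that Myc drives, had 2 called genes of 37, against 2.99% of all tested genes (list median -0.18). Paics, of purine synthesis, was at 175, 189, 198, 212 and 166 CPM in old and 229 to 315 CPM (median 255) in young libraries, a change of -0.46 ± 0.11 (SE, adjusted p = 0.0277). Gmps, which makes GMP, changed by -0.38 (adjusted p = 0.0373). The ages overlapped for neither, and the calls were kept in 6 and 3 of 11 fits. The E-box, CACGTG, reads the same on both strands. Among the tested genes with a promoter in the RefSeq table (250 bases before to 50 after the start, GRCm38.p6), the E-box was present in 21 of 167 called higher (12.6%), 23 of 141 called lower (16.3%) and 11.8% of all 9988, and in 7.15% of all promoters of the table. These shares were not tested. A pair of the lower genes that hold it upstream of the start is shown, 5′ to 3′, with the E-box in capitals. The pair was chosen after the calls were known, and Igfbp2 is not in the list above. Whether Myc binds there, or the E-box bears on the change, was not tested.
Paics, chr5:76951072-76951131, plus strand: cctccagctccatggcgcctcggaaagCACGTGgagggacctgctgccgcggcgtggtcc
Igfbp2, chr1:72824311-72824370, plus strand: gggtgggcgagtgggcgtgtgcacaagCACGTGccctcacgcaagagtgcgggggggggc
In Paics the word begins 203 bases before the start and in Igfbp2 142 bases before it.

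Several macrophage genes fell in old KO liver. Of 19 Kupffer cell and macrophage markers 4 were called lower and 1 higher, 15 had a negative change, and the list median was -0.69. Their summed level was 519 to 662 CPM in old and 760.0 to 1215 CPM in young libraries, without overlap. Of all tested genes 2.99% were called, and 6709 of 12469 had a negative change. C1qc, a chain of the first complement component that macrophages make, was at 28.96, 34.9, 30.8, 39.6 and 51.0 CPM against 56.3 to 96.7 CPM (median 71.5), a change of -1.0 ± 0.22 (SE, adjusted p = 0.0176). C1qa, its partner chain, changed by -0.95 (adjusted p = 0.0267), and Csf1r, the receptor that macrophages need to survive, by -0.79 (adjusted p = 0.0381). Timd4, a receptor for dying cells on resident Kupffer cells, was at 2.36, 2.10, 2.92, 4.75 and 5.25 CPM against 5.90 to 11.9 CPM (median 8.10), with a change of -1.11 ± 0.29 (SE, adjusted p = 0.0367). All 5 old libraries were below all young ones for C1qc, C1qa and Timd4. The calls of C1qc, C1qa, Csf1r and Timd4 were kept in 10, 7, 2 and 2 of 11 fits. Without K5L5116 and K5L5118 8 markers were called, all lower, where 2.07% of all tested genes were called lower.

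Gpnmb, a glycoprotein of lipid-laden macrophages, went the other way. It was at 10.1, 5.83, 2.25, 1.58 and 2.19 CPM in old and 0.615 to 1.56 CPM (median 0.939) in young libraries, a change of 1.19 ± 0.32 (SE, adjusted p = 0.0448), and the ages did not overlap. The call was kept in 2 of 11 fits and lost without K5L5116 and K5L5118 (1.23, adjusted p = 0.0574). Cfp, the complement regulator properdin, was at 15.9, 16.8, 17.2, 21.2 and 25.3 CPM against 28.1 to 53.9 CPM (median 47.7), and fell by that test in every fit, with a change of -1.16 ± 0.23 (SE, adjusted p = 0.01). Antigen presentation had 3 called of 23 genes, all lower, against 1.36% called lower among all tested genes, with a list median of -0.40. They were the protease Ctss of the class II pathway (-0.82, adjusted p = 0.0203), the nonclassical class I gene H2-M3 (-0.61, adjusted p = 0.0468) and the peptide transporter Tap2 (-0.44, adjusted p = 0.0483), kept in 7, 2 and 3 of 11 fits, and those of H2-M3 and Tap2 were lost without K5L5116 and K5L5118 (0.0702 and 0.0868 as adjusted p). Cxcl13, a chemokine for B cells, changed by -1.49 (adjusted p = 0.0338) and was the called gene of 30 in the list of senescence-associated secretion (median -0.02, or 0.01 with TMM scaling), kept in 2 of 11 fits. Of 11 endothelial markers 10 had a negative change (median -0.50). Limma called none of them, 7 had an unadjusted p under 0.05, edgeR called 0 and DESeq2 called 4, all lower. Of all 12469 tested genes 2401 had an unadjusted p under 0.05 and DESeq2 called 378 lower. The summed level of the 11 endothelial markers was 260.0 to 339 CPM in old and 337 to 554 CPM in young libraries.

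Most interferon response genes had positive changes, with few calls. Of 46 tested, 39 had a positive change and the median was 0.43, while 1 was called higher and 1 lower (edgeR 3 and 1, DESeq2 8 and 1). Of all 12469 tested genes 5760 had a positive change, and 204 were called higher and 169 lower (edgeR 202 and 133, DESeq2 352 and 378). Stat2, a transcription factor of the type I interferon pathway, was at 74.96, 63.4, 47.5, 73.5 and 81.7 CPM in old and 23.2 to 54.3 CPM (median 30.4) in young libraries, a change of 1.01 ± 0.20 (SE, adjusted p = 0.00913). Only K18L08 reached into the young range. Epsti1, an interferon-inducible gene, fell from a young range of 2.88 to 5.73 CPM (median 3.12) to 1.54, 1.23, 1.64, 1.43 and 1.38 CPM, below every young library, a change of -0.88 ± 0.15 (SE, adjusted p = 0.00338). Without the old library K18L08, 13 members were called higher, and without the young library K5L5218, 11 were. Of all 12469 tested genes, 221 and 351 were called higher in these fits. Among the 11 were Cmpk2 at 1.56 (adjusted p = 0.0218), Ifit1 at 1.53 (adjusted p = 0.0432) and Gbp6 at 1.52 (adjusted p = 0.0275). With all libraries these 3 stood at 1.35 (adjusted p = 0.0617), 1.27 (adjusted p = 0.122) and 1.25 (adjusted p = 0.0982). Ifit1 was at 18.3 CPM in K5L5218, at 11.98 CPM in K5L5118 and at 3.27 to 5.08 CPM in the other 4 young libraries, against 34.3, 22.5, 4.04, 27.8 and 18.9 CPM in the old ones.

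Cell cycle and stress lists had few calls, where 2.99% of all tested genes were called. Cdt1, which licenses replication origins, was at 3.29, 3.68, 3.33, 4.24 and 4.52 CPM against 5.33 to 7.68 CPM (median 6.31) and changed by -0.63 ± 0.14 (SE, adjusted p = 0.0182), the called gene of 19 tested in cell proliferation (median -0.19). The call was lost without K18L06 (adjusted p = 0.0538). Eda2r, a receptor of the tumour necrosis factor family and p53 target, rose by 1.19 (adjusted p = 0.0338) and was the called gene of 27 in the p53 list (median 0.19), kept in 3 of 11 fits. It was at 4.11, 1.02, 3.48, 3.58 and 1.97 CPM in old and 0.144 to 1.19 CPM (median 0.523) in young libraries. Cdkn1a, the cell cycle inhibitor p21, was at 82.5, 87.99, 200.4, 108 and 94.4 CPM in old and 5.74 to 339 CPM (median 147) in young libraries, so the old range lay inside the young one, and the difference was 0.59 (adjusted p = 0.796). Cdkn2a, the senescence inhibitor p16, was at 0, 0.358, 0.409, 1.12 and 0.729 CPM in old and 0.0568 to 0.434 CPM in young libraries and did not pass the filter.

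**Figure D2:**
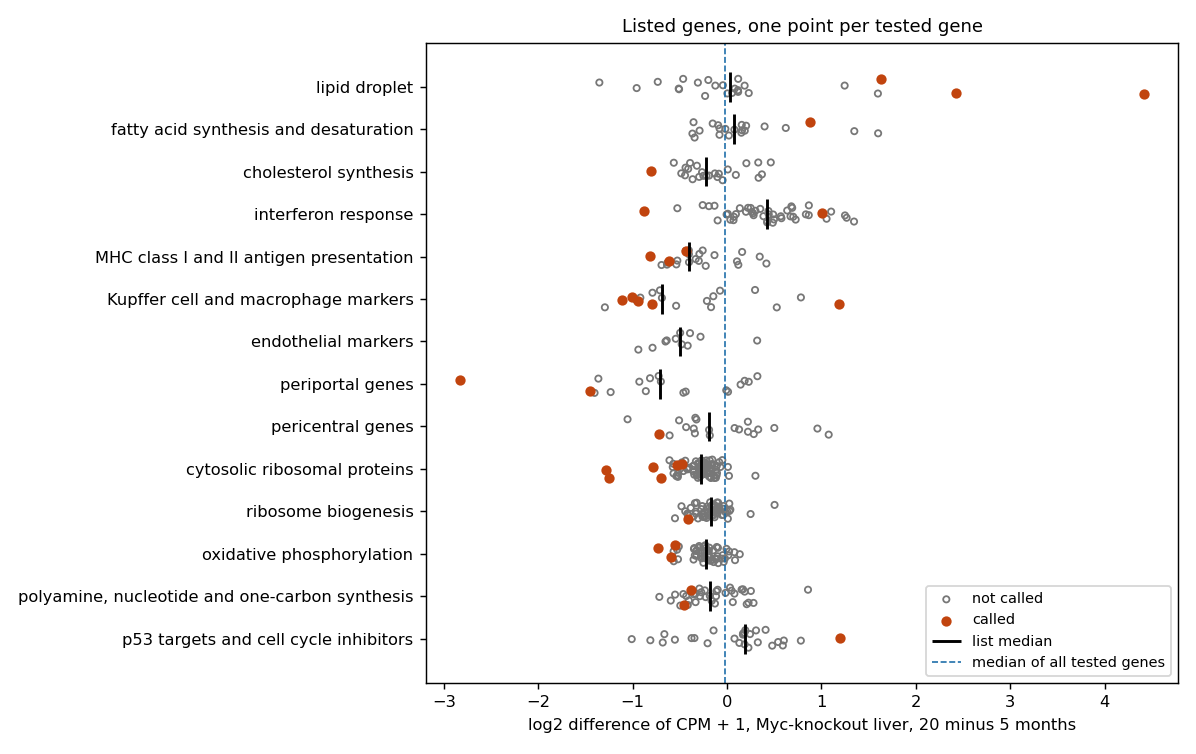
Change from 5 to 20 months in KO liver (horizontal axis, log2 difference of CPM + 1) of every tested gene of 14 lists, with called genes filled, list medians as black bars and the median of all tested genes as a dashed line. The interferon median of 0.43 lies to the right of the dashed line, and the periportal and macrophage medians of -0.71 and -0.69 lie to the left.

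Some male-biased liver genes fell with age among libraries with Y-linked transcripts. With all 11 libraries, limma called none of 23 male-biased liver genes (3 with an unadjusted p under 0.05, edgeR 0, DESeq2 2, both lower). Of all 12469 tested genes 2401 had an unadjusted p under 0.05 and DESeq2 called 378 lower. Without K5L5116 and K5L5118, 9 of the 23 were called, all lower, where 2.07% of all tested genes were called lower. Of the 23, 22 had a negative change and the median was -1.92. For 15 of the 23, all 5 old libraries lay below all 4 young libraries with Y-linked transcripts, as they did for 4.92% of all tested genes.

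Selenbp2, a selenium-binding protein gene of male liver, was at 4.72, 2.61, 5.88, 1.58 and 4.95 CPM in the old libraries. The 4 young libraries with Y-linked transcripts had 199, 238, 185 and 332 CPM, and the 2 with Xist had 1.86 and 0.965 CPM. The old libraries were close to the young ones with Xist and far below the other young ones, and the change without the libraries with Xist was -5.65 ± 0.79 (SE, adjusted p = 0.000871). Cyp2d9, a male-biased cytochrome P450, was at 1019, 871, 1011, 556 and 796 CPM against 3224, 4242, 3497 and 4378 CPM, a change of -2.19 ± 0.31 (SE, adjusted p = 0.000871). Mup20, the major urinary protein darcin that males excrete as a pheromone, was at 3371, 2459.5, 5836, 2599.8 and 4757 CPM against 10641, 16961, 12042 and 15805 CPM, a change of -1.92 ± 0.38 (SE, adjusted p = 0.00966). The libraries with Xist had 72.9 and 34.1 CPM for Cyp2d9 and 93.6 and 138 CPM for Mup20, so the old libraries lay between the young ones of either kind. The other 6 calls were Mup21 at -2.42, Cyp4a12b at -3.52, Gstp1 at -1.98, C6 at -1.86, C8b at -1.72 and Cyp7b1 at -1.74. Urinary protein, Cyp2d, Cyp4a12 and Gstp genes have near-identical copies, so reads may be split among them.

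A pair of female-biased genes rose among the same libraries. Cyp2b9, a female-biased cytochrome P450, was at 352, 131, 7.67, 267 and 66.96 CPM in the old libraries, at 0, 0, 0.957 and 0.0868 CPM in the young ones with Y-linked transcripts and at 283 and 425 CPM in those with Xist. Each old library was above all 4 young ones with Y-linked transcripts, and the change without the libraries with Xist was 6.28 ± 0.94 (SE, adjusted p = 0.00142). Cyp2a4 was at 25.98, 11.3, 5.06, 23.8 and 2.11 CPM against 0.595, 0.289, 1.37 and 0.0868 CPM, a change of 2.85 ± 0.72 (SE, adjusted p = 0.0326), and at 1053 and 532 CPM in the libraries with Xist. Of 12 genes tested from the female-biased list, these 2 were called higher and Lifr lower, with a median of 0.27. Without the libraries with Xist, 296 of all 12469 tested genes were called higher and 258 lower. Lifr was at 123 and 132 CPM in the libraries with Xist, below the other young libraries at 167 to 257 CPM. Its levels in these young libraries were thus not female-biased. Beyond Selenbp2 and Lifr, the sex-biased genes named here were chosen after their values were seen.

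**Figure D3:**
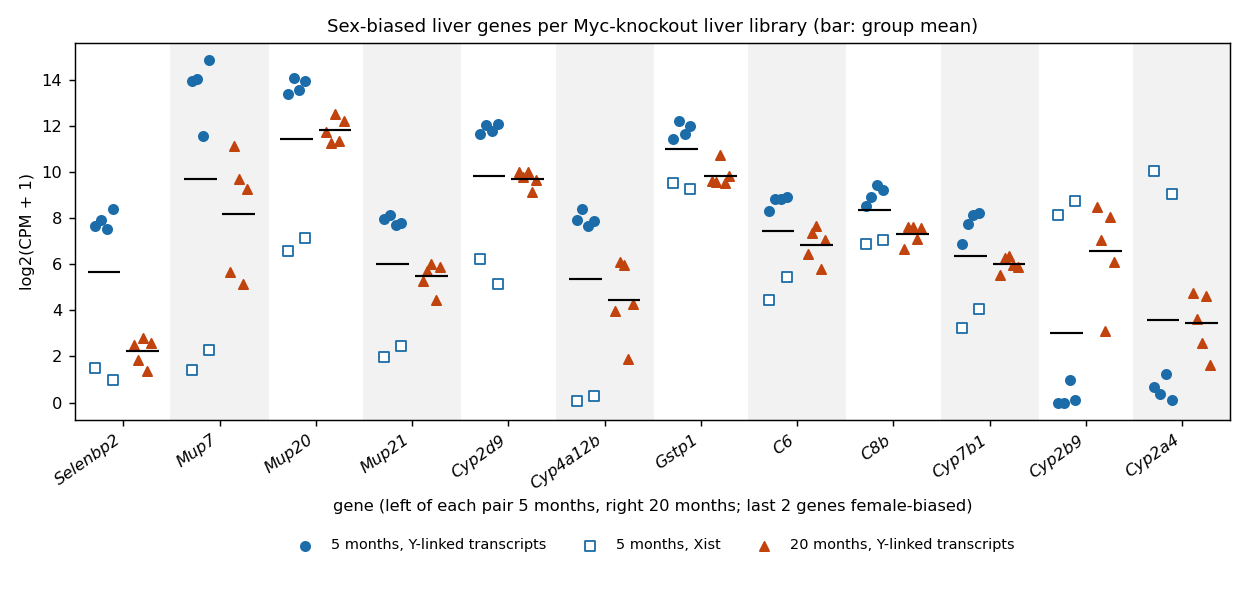
Levels of 10 male-biased and 2 female-biased genes (Cyp2b9 and Cyp2a4) on the log2(CPM + 1) scale (vertical axis) in each KO liver library, drawn as filled circles (5 months, Y-linked transcripts), open squares (5 months, Xist) and triangles (20 months), with bars for the means of all libraries of an age. Selenbp2 was at 1.58 to 5.88 CPM in the old libraries, 185 to 332 CPM in the young ones with Y-linked transcripts and 0.965 to 1.86 CPM in those with Xist.

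In 21 of the 43 lists limma called no gene. They covered bile acid synthesis, glycolysis and gluconeogenesis, the circadian clock, immediate early genes, translation control, aminoacyl-tRNA synthetases, the acute phase response, extracellular matrix, macroglobulins, male-biased genes and markers of 11 other cell types or states. Of their 295 tested genes 65 had an unadjusted p under 0.05, edgeR called 1, and DESeq2 called 1 higher and 13 lower. Of all 12469 tested genes 2401 had such a p, edgeR called 335, and DESeq2 called 352 higher and 378 lower. Among them, Gys2, the liver glycogen synthase, was at 214, 241, 274, 161 and 169 CPM against 278 to 402 CPM (median 311), a difference of -0.64 (adjusted p = 0.0813) with ages that did not overlap. Serpina7, the thyroxine-binding globulin gene, was at 70.6, 64.1, 22.97, 37.1 and 44.4 CPM against 0.669 to 39.9 CPM (median 7.83), a difference of 2.41 (adjusted p = 0.0837). Per1, a clock gene, was at 2.77, 16.96, 18.7, 22.5 and 15.2 CPM against 19.01 to 112 CPM (median 32.4), a difference of -1.52 (adjusted p = 0.111). Clec4g, a marker of liver sinusoidal endothelium, was below the young range in all old libraries (-0.79, adjusted p = 0.0575). Amacr, of bile acid side chain processing, differed by -0.49 (adjusted p = 0.0537), and by -0.68 (adjusted p = 0.00686) without K5L5116 and K5L5118. Of the markers of pancreas, muscle and tumour or fetal liver, 1 of 12, 1 of 10 and 3 of 10 passed the filter, and Afp, the fetal liver gene, was at 0.307 to 1.02 CPM in old and 0.284 to 1.01 CPM in young libraries.

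WT liver of the same ages was compared to see where ageing of KO liver differed. In WT liver 908 genes were called (7.28%), and no library is shared between the comparisons. Both used the same estimate of each gene's spread, from the fit over all 4 groups, so their calls are not independent. Of the 373 genes called in KO liver, 183 were called in WT liver in the same direction, which is 49.1% of the KO calls and 20.2% of the WT calls. None was called in opposite directions, and 363 had the same sign. Limma called none of 12469 genes for the difference between the genotypes (0.0%). The smallest adjusted p was 0.991, 485 genes had an unadjusted p under 0.05, and edgeR and DESeq2 called 0. Genes called higher in KO had a median change of 0.86 in KO and 0.62 in WT, and those called lower -0.71 and -0.49. These genes were chosen by their change in KO liver.

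The largest changes of KO liver had the same direction in WT liver. Cidea changed by 5.89 (adjusted p = 1.07e-05) in WT, Fitm1 by 2.40 (adjusted p = 0.00352), Gprc5b by 2.16 (adjusted p = 0.000408), Cdh1 by -2.75 (adjusted p = 0.00034) and Apom by -1.31 (adjusted p = 0.000388). Ribosomal protein genes had a median of -0.50 in WT, with 44 of 80 called lower. Of all 12469 tested genes 559 were called lower in WT, with a median of -0.01. Cholesterol synthesis genes had a median of 0.30 in WT, against -0.22 in KO. Stat2 changed by 0.67 (adjusted p = 0.0455), C1qc by -1.11 (adjusted p = 0.00398) and Mlxipl by 0.82 (adjusted p = 0.00609). Without the libraries with Xist, also 2 of 6 among the young WT ones, the male-biased list had a median of -0.92 in WT with 5 of 23 called lower. Of all 12469 tested genes 226 were called lower in WT in that fit, with a median of -0.01. Selenbp2 changed by -4.10 (adjusted p = 0.00716). The smallest unadjusted p of a difference among the male-biased genes was 0.0088, for Cyp2d9. It changed by -0.92 (adjusted p = 0.114) in WT (adjusted p of the difference 0.999).

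The genes with the smallest unadjusted p of a difference between the genotypes are given next, and none passed adjustment. Add3, a protein of the membrane skeleton, was at 14.99, 14.8, 17.1, 14.4 and 10.8 CPM in old and 17.7 to 27.9 CPM (median 20.7) in young KO libraries. It changed by -0.55 (adjusted p = 0.0202) in KO, and its change in WT was 0.21 (adjusted p = 0.28). The unadjusted p of the difference was 0.000234, the smallest among genes that averaged 5 CPM or more, and the KO change was -0.43 (adjusted p = 0.0567) without K5L5116 and K5L5118. The call was also lost without K18L10. Arhgef3 changed by -0.64 (adjusted p = 0.0338) in KO, kept in 3 of 11 fits, and by 0.23 (adjusted p = 0.377) in WT (unadjusted p of the difference 0.000929). Ces1b, a carboxylesterase, had -0.43 (adjusted p = 0.0972) in KO and -1.32 (adjusted p = 2.1e-05) in WT (unadjusted p = 0.000246). Golm2 and Mfsd4b1 completed the 5 smallest, at -0.52 (adjusted p = 0.183) and -0.47 (adjusted p = 0.0575) in KO against 0.65 (adjusted p = 0.0621) and 0.27 (adjusted p = 0.21) in WT. Of the 373 genes, 10 had opposite signs in the genotypes, Add3, Arhgef3 and Hsd17b7 among them. Hsd17b7 was at 55.04, 88.1, 83.9, 49.9 and 55.6 CPM in old and 77.7 to 135 CPM (median 125) in young KO libraries, and its change in WT was 0.06 (adjusted p = 0.88), with an unadjusted p of the difference of 0.00585.

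**Figure D4:**
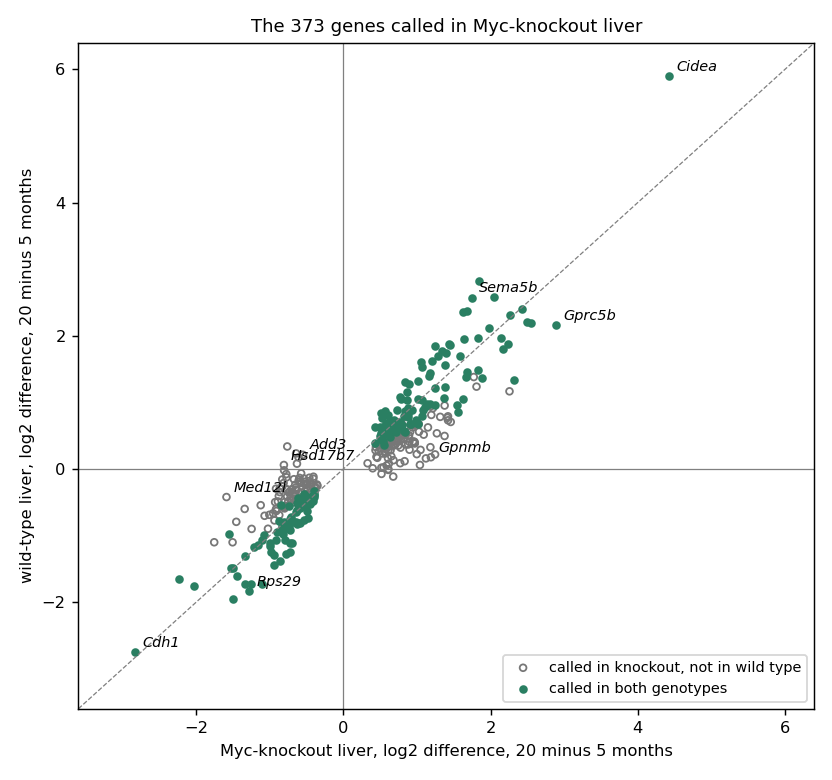
Change from 5 to 20 months of the 373 genes called in KO liver, with KO on the horizontal and WT on the vertical axis (both as log2 difference of CPM + 1), filled where WT liver was called too, with a dashed line of equal change. Of these genes 363 lie in the quadrants of equal sign, and Cidea lies at 4.42 in KO and 5.89 in WT.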

How the data were processed

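RNA of liver was isolated with RNeasy kits, poly-A selected and sequenced on an Illumina platform after NEBNext Ultra Directional library preparation, per the labels' protocols. The authors deposited 1 table of 36333 gene entries in 64 libraries, whose values are a read signal that the file header calls CPM and that CLC produced. Columns summed to 1.19 to 1.60 M in KO liver, so the name CPM is not exact. All low values came out as whole multiples of 1 read (100%, tolerance 0.01), and the recovered reads gave the depths. Genome builds GRCm38.p6 and mm10 come from the submitters' processing notes. The aligner, annotation and strand setting were not given in the sources used here. A repeated gene ID was summed, and 35336 of 36332 IDs had a symbol in the reference table; the IDs without one held 0.166% of KO liver reads.

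Genes above 1 CPM in at least 5 of the 11 KO liver libraries were tested (12469), on log2(CPM + 1), a scale that understates the change of low genes. Limma 3.58.1 (trend, R 4.3.3) was fitted over 4 groups, KO and WT liver at both ages (22 libraries), with Benjamini-Hochberg adjustment over all tested genes and calls at an adjusted p under 0.05. All adjusted p-values in the text are from limma unless another tool is named. On the recovered reads edgeR 4.0.16 called 335 genes and DESeq2 1.42.0 called 730. The scripts were tested on simulated data. Other settings left out each library or the libraries with Xist, fitted Xist as a covariate, or changed the pseudocount, filter, scaling, trend or fitted samples. No 2 libraries of a group agreed within sampling noise. List summaries describe only tested genes: members below the filter carry no change.

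The members and gene lists were chosen with earlier results of these data known. Named genes were Myc, Pvt1 and Gt(ROSA)26Sor; the 10 largest rises and 10 largest falls among called genes averaging 5 CPM or more, with ages that do not overlap and the same call without the libraries with Xist; up to 3 called members per list and direction, or else the member with the smallest adjusted p; and the 5 smallest p of the difference between genotypes. Promoter sequences are from RefSeq (GRCm38.p6), and transcript lengths from the longest GENCODE vM21 transcript of a gene, found for 95.7% of tested genes and 86.6% of called ones.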

Additional observations from a re-analysis of the deposited data

Results flagged for a closer look

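Among the genes named by rule, 9 of 156 gene and age groups (5.77%) had 1 library far from the others, by Dixon's criterion at the 95% level, which chance passes in about 1 of 20 groups. In the young libraries, Fitm1 was high in K5L5218, at 56.0 CPM against 6.55 to 16.0 CPM in the other 5. Mfsd4b1, a predicted sugar transporter, was also high in K5L5218, at 116 CPM against 78.5 to 90.7 CPM. Epsti1 was high in K5L4284 (5.73 CPM against 2.88 to 3.47 CPM), and Epcam, an epithelial adhesion gene of bile ducts, in K5L5116 (4.57 CPM against 1.87 to 2.86 CPM). In the old libraries, K18L06 was high for Osbpl3 (67.9 CPM against 18.7 to 32.3 CPM) and Mogat1 (15.9 CPM against 3.57 to 6.44 CPM), and low for Ndufa1 (32.2 CPM against 52.3 to 60.04 CPM). Atp5b was low in K18L10, at 1169.6 CPM against 1299.8 to 1335 CPM. Ecm1, an extracellular matrix gene, was low in K18L08, at 135 CPM against 168 to 179 CPM.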

How the results depend on the processing

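No paired analysis was possible because the codes of old and young libraries hold different numbers. Against 373 genes called in KO liver (204 higher, 169 lower), fitting the 11 KO libraries alone gave 179 (101 and 78) and DESeq2 on recovered reads gave 730 (352 and 378). With no filter on low values 97 were lower, and without the libraries with Xist 258 were lower. Leaving out 1 library gave 102 to 729 calls, with 64 to 351 higher and 38 to 378 lower. WT liver had 908 calls, and 1431 with DESeq2, 403 without the libraries with Xist and 462 (without W18L02) to 1604 (without W5L5277) when 1 library was left out. The difference between the genotypes had 0 calls in every fit. Of 78 named genes tested, 52 were called, and none of these reversed direction under any setting. The uncalled pancreas gene Cela1 reversed, at 0.0038, 0.033, 0.027, 0.18 and 0.062 without K18L09, K18L10, K5L4285, K5L5218 and K5L5248 (range -0.23 to 0.18, against -0.040). The cause was not tested for any of these. Of the 52 called, 16 lost their call with no filter, 17 in the fit of KO libraries alone, 7 with TMM scaling, 6 with edgeR and 7 without the libraries with Xist. From 2 (without K5L5218) to 27 (without K18L06) of the 52 lost it when 1 library was left out. With no filter, 21014 genes were tested and 257 called, so genes that did not exceed 1 CPM in 5 libraries enter only that fit.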

Other observations

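Some genes of RNA processing were among those called higher in old KO liver. They were picked out after their values were seen, belong to no list used in the report, and were given no test as a group. How many of the 11 fits kept each call is not given. Ddx17, an RNA helicase of splicing and microRNA processing, was at 232, 289, 254, 273 and 306 CPM in old and 103 to 227 CPM (median 137) in young libraries, a change of 0.88 ± 0.15 (SE, adjusted p = 0.00248). Every old library was above every young one. Luc7l3, a splicing factor related to a U1 snRNP protein, changed by 0.95 (adjusted p = 0.00139), Pnisr by 0.87 (adjusted p = 0.00875), and Ccnl2, a cyclin of splicing speckles, by 0.71 (adjusted p = 0.01). Srrm2, a speckle scaffold protein, changed by 0.68 (adjusted p = 0.0448) and Rsrp1 by 1.37 (adjusted p = 0.032). In the Srsf family of splicing regulators 1 of 10 tested genes was called higher, 7 had a positive change, and the median was 0.17. Of all 12469 tested genes 1.64% were called higher and 5760 had a positive change, with a median of -0.02. In WT liver Ddx17 changed by 0.37 (adjusted p = 0.12) and Luc7l3 by 0.41 (adjusted p = 0.0893).

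Other single genes are given as values, again chosen after these were seen. The other genes of their pathways and the fits that kept each call are not counted. Hpd, the second enzyme of tyrosine breakdown, was at 1546, 1935, 2304, 2203 and 1759 CPM in old and 2828 to 5612 CPM (median 3532) in young libraries, a change of -0.99 ± 0.21 (SE, adjusted p = 0.0148). Hgd, which acts in the step after it, changed by -0.62 (adjusted p = 0.0202), and Tdo2, the first enzyme of tryptophan breakdown, by -0.95 (adjusted p = 0.0383). The unadjusted p of the difference between KO and WT was 0.399, 0.327 and 0.419 for these 3 genes. The lectin genes Clec1b, Fcna and Mrc1 changed by -0.83 (adjusted p = 0.0216), -0.84 (adjusted p = 0.0468) and -0.74 (adjusted p = 0.0347). Noct, a rhythmic phosphatase of NADPH, rose by 2.26 (adjusted p = 0.01), Lgals1, the lectin galectin-1, by 2.24 (adjusted p = 0.00905), and Chka, the choline kinase that starts phosphatidylcholine synthesis, by 1.46 (adjusted p = 0.0196).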
